A study of Homo sapiens with 4 samples.

Results

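The solute carriers are the genes whose symbol begins with SLC followed by a family number. Of the 9885 genes in the table, 152 carried such a symbol. They belonged to 39 families. Counted as transporter genes were 146 of the 152, the protein-coding members of the GENCODE annotation without SLC2A4RG and SLC9A3R1. SLC3A2, a heavy chain that pairs with carriers, is among them. The others were 3 long noncoding RNAs (SLC16A1-AS1, SLC25A25-AS1 and SLC2A1-AS1), the pseudogene SLC35E2 and 2 proteins that are not carriers themselves, SLC2A4RG and SLC9A3R1.

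RNA-seq had been made from HEYA8, an ovarian cancer cell line grown out of HEY cells, and from lines made from it, to ask how the transcriptome depends on extracellular matrix protein 1 (ECM1) and its isoforms. A8 was the parental HEYA8 line. A8i was HEYA8 in which ECM1 had been stably silenced with a lentiviral hairpin RNA and puromycin selection. A8i-A and A8i-B were made from A8i by stable expression of ECM1a, the secreted isoform, or of ECM1b, the isoform kept inside the cell, so that both of these isoform lines still carried the silencing. The 4 lines had been grown in the same serum-containing RPMI1640 medium, and the labels name no treatment or time point. Each line was 1 library, so that a difference between lines is a difference between 2 libraries and has no replicate check. The control hairpin line and the empty-vector line of the paper are not among the 4. Silencing or an isoform therefore cannot be told apart from the delivery of the construct and the selection of the cells.

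Solute carriers are membrane proteins that move small molecules across the plasma membrane or the membranes of organelles. Some let a substrate run down its own gradient, some couple it to sodium, protons or another solute, and some exchange one substrate for another. Their number gives the family, which groups proteins by sequence, and most families share a kind of substrate, such as amino acids, sugars, nucleosides, metals or inorganic ions. Most members of the SLC25 family sit in the inner mitochondrial membrane and link the cytosol to the matrix. In cancer cells, carriers of glutamine, cystine, glucose and lactate are known for feeding growth.

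The table gives a whole number of events for each gene in each library, from 0 to 32. The kind of event and the program that counted it are not given in the sources used here. The numbers are not read counts and not expression levels. A gene with more annotated transcripts tended to have more events, so that the order of 2 genes is not an order of their levels. Several events of 1 gene can come from the same transcripts, and in a bulk sample a smaller share of cells with an event and fewer events per cell cannot be told apart.

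The solute carriers had 354 events in A8 and 243 in A8i, and 313 in A8i-A and 298 in A8i-B. A8i was the lowest of the 4, and A8 the highest. Wherever 4 numbers follow each other without names, they are those of A8, A8i, A8i-A and A8i-B in this order. Over all genes, the library totals were 24513, 20535, 22691 and 24236, so that A8i was also the lowest library as a whole. The solute carriers took 1.44% of the events of A8, 1.18% of A8i, 1.38% of A8i-A and 1.23% of A8i-B. Silencing of ECM1 could not be checked on these numbers, since ECM1 itself had 2 events in every library. Of the 10 ovarian epithelial markers looked up, 7 were in the table, with sums of 23, 16, 17 and 19 events and with EPCAM at 0 in each library. Of the 4 mesenchymal markers, 3 were in it, with sums of 16, 14, 15 and 17. Of the 4 leukocyte markers, CD14 alone was in the table, with 1 event in A8i-B and 0 elsewhere, and none of the 3 endothelial markers was in it.

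At least 1 event was listed for 122 of the 152 solute carriers in A8, which is 80.3%. A8i had 101 such carriers (66.4%), A8i-A had 113 (74.3%) and A8i-B had 116 (76.3%). Over all genes, the shares were 82.2, 73.7, 78.9 and 81.6%. The carriers were thus below all genes in each library, by the widest margin in A8i. Events in each of the 4 libraries were listed for 83 carriers (54.6%), against 60.6% of all genes. The carriers SLC22A18, SLC25A33, SLC30A7, SLC35B4 and SLC35D1 were at 0 throughout.

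The median carrier had 2 events in A8 and 1 in each of the other libraries, where the medians of all genes were 2, 1, 1 and 2. The carriers with 5 or more events numbered 24 in A8 but 10 in A8i, and 19 and 17 in A8i-A and A8i-B. Among all 9885 genes, these numbered 1603, 1240, 1395 and 1595, also lowest in A8i. The highest number in any library was 13, for SLC38A6 in A8. The carriers with the most events over the 4 libraries were steady in part and uneven in part, as the plot of events for each named gene shows.

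**Figure D1:**
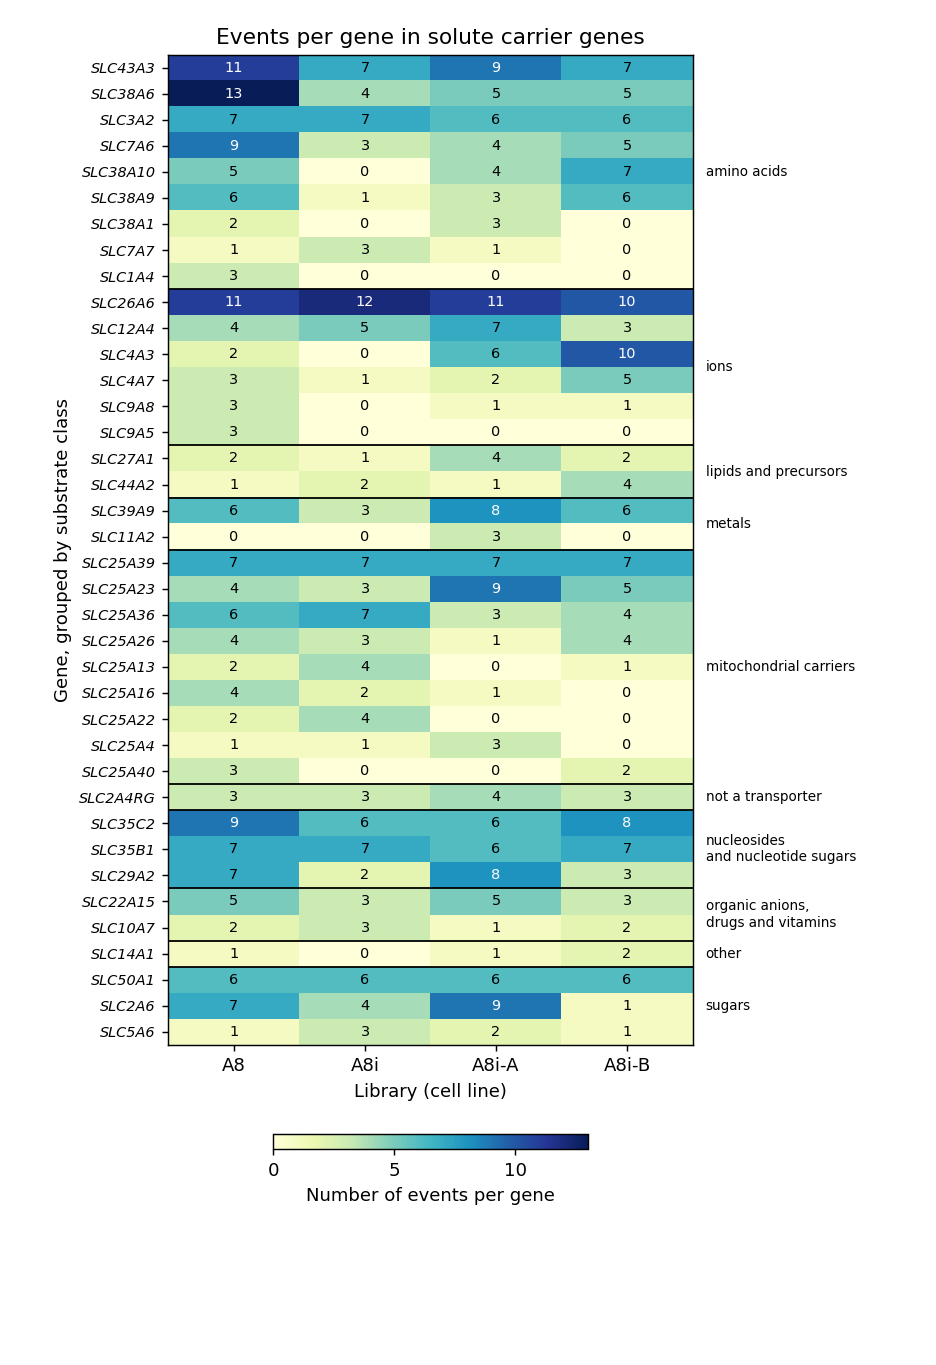
Number of events per gene (colour and printed number) for 38 solute carrier genes named by rule, in rows grouped by substrate class, in the 4 libraries A8, A8i, A8i-A and A8i-B (columns, 1 library each). SLC25A39 and SLC50A1 hold the same number in each column, whereas SLC38A6 stands at 13 in A8 and at 4 or 5 in the other columns.

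The first comparison asks what goes with the silencing of ECM1, which here comes together with hairpin delivery and puromycin selection. Between A8 and A8i, events of the solute carriers were fewer in 67 genes, more in 24 and the same in 61. Of all 9885 genes, 3810 had fewer, 1950 more and 4125 the same, so that the whole table leaned the same way. The total of A8i was 68.6% of that of A8, with a 95% exact Clopper-Pearson interval of 58.1 to 81.0% that takes events as independent and covers counting error only. For all genes it was 83.8%, with an interval of 82.2 to 85.3%. The solute carriers thus lay below all genes, and their interval ended below that of all genes. Scaled to the library totals, which makes the totals of all genes equal by construction, the carriers of A8i were at 81.9% of A8.

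A gene was called where its number of events plus 1 was at least 2-fold that in the other library, a rule of size and not a test, by which 1 event against 0 is called. In A8i, 40 of the 152 carriers (26.3%) were called lower than in A8, against 20.2% of all genes. Of these 40, 14 were 1 event against 0. Called higher in A8i were 9 carriers (5.92%), against 8.62% of all genes. With a difference of at least 2 events asked for instead, 35 carriers (23%) were lower and 5 (3.29%) were higher, against 16.6 and 6.89% of all genes. After scaling to the library totals, 24 carriers (15.8%) were called lower and 9 (5.92%) higher, against 7.17 and 8.95% of all genes. The median log2 ratio was 0 for the carriers and for all genes, since the same number in both libraries was the most common outcome.

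No carrier gained more than 2 events from A8 to A8i. Among all genes, 1.5% gained 3, 0.759% gained 4 and 0.506% gained 5 or more. On the other side, 10 carriers (6.58%) lost 3 events, against 3.80% of all genes, and 5 carriers (3.29%) lost 5 or more, against 2.21%. The carriers that lost the most were SLC38A6, SLC7A6, SLC38A10, SLC38A9 and SLC29A2, of which the first 4 belong to amino acid families and the last carries nucleosides.

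**Figure D2:**
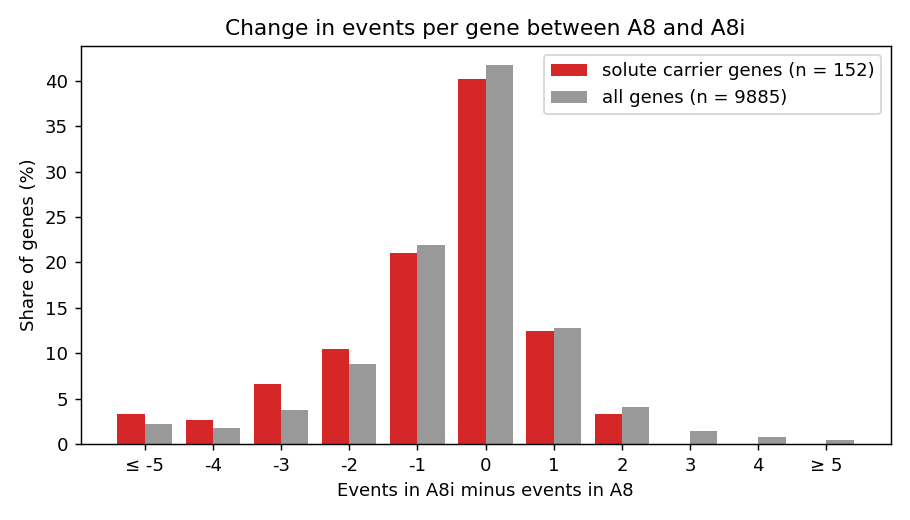
Share of genes in percent (vertical axis) by the difference in events, A8i minus A8 (horizontal axis), for the 152 solute carriers in red and the 9885 genes of the table in grey. The red bars end at a gain of 2 events and stand above the grey ones from a loss of 2 events onward, with 6.58 against 3.80% at a loss of 3.

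The second comparison asks what goes with stable expression of each isoform in the silenced line. In A8i-A, the carriers had 129% of the events of A8i (interval 109 to 153%), with 56 genes at more, 29 at fewer and 67 at the same number. All genes were at 110.5% (interval 108 to 113%), which lies within the interval of the carriers. Of the 9885 genes, 3323 had more, 2304 fewer and 4258 the same number. Called higher than in A8i were 36 carriers (23.7%), against 18.1% of all genes, and called lower were 15 (9.87%), against 11.1%. In A8i-B, the carriers had 123% of the events of A8i (interval 103 to 146%), with 53 genes at more, 28 at fewer and 71 at the same number. All genes were at 118% (interval 116 to 120%), with 3753 of the 9885 at more, 1992 at fewer and 4140 at the same number. Called higher were 33 carriers (21.7%), against 20.4% of all genes, and called lower were 14 (9.21%), against 9.21%, so that the carriers of A8i-B were close to the background. Scaled to the library totals, the carriers of A8i-A were at 117% of A8i and those of A8i-B at 104%. In A8i-B, 15 (9.87%) were then called higher and 15 (9.87%) lower, against 7.32 and 9.5% of all genes. Higher calls then no longer outnumbered lower ones, while their share among the carriers stayed above that of all genes. Of the 33 higher calls before scaling, 15 were 1 event against 0.

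Both comparisons use the same A8i library, which was the lowest of the 4, and their numbers are therefore not independent of each other. Between the isoform lines themselves, the carriers of A8i-A were at 105% of those of A8i-B, with an interval of 89.3 to 124% that holds 100%. All genes were at 93.6% (interval 91.9 to 95.3%). Called higher in A8i-A were 22 carriers (14.5%), against 11.7% of all genes, and called higher in A8i-B were 25 (16.4%), against 16.2%. After scaling to the library totals, 22 carriers (14.5%) were called higher in A8i-A and 7 (4.61%) higher in A8i-B, against 11.7 and 5.56% of all genes. Both the carriers and all genes then had more calls toward A8i-A than toward A8i-B. Scaling puts 1 event against 0 below the limit in A8i-B, the larger library, but not in A8i-A. Of the calls toward A8i-B before scaling, 14 of the 25 carriers and 781 of the 1602 genes were 1 event against 0. The new balance is therefore not read as a difference between the lines. Against the parental line, the carriers reached 88.4% of A8 in A8i-A (interval 75.7 to 103%) and 84.2% in A8i-B (interval 71.9 to 98.5%), whereas all genes reached 92.6 and 98.9%.

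By substrate, the amino acid carriers had the lowest A8i total relative to A8 of the classes with more than 8 genes. Their 21 genes had 79 events in A8 against 37 in A8i, with 51 in A8i-A and 53 in A8i-B. The A8i total was 46.8% of A8 (interval 30.8 to 70.0%), which lies below the 83.8% of all genes. Events in A8i were fewer in 13 genes, more in 1 and the same in 7. Of all 9885 genes, 3810 had fewer, 1950 more and 4125 the same. Of the 21 genes, 10 were called lower and 1 higher, where 20.2 and 8.62% of all genes were. The A8i-A and A8i-B totals were 138% (interval 88.5 to 216%) and 143% (interval 92.4 to 224%) of A8i, and both intervals held the value of all genes. Relative to A8, both lines stayed lower, at 64.6% (interval 44.5 to 93.0%) and 67.1% (interval 46.5 to 96.2%).

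**Figure D3:**
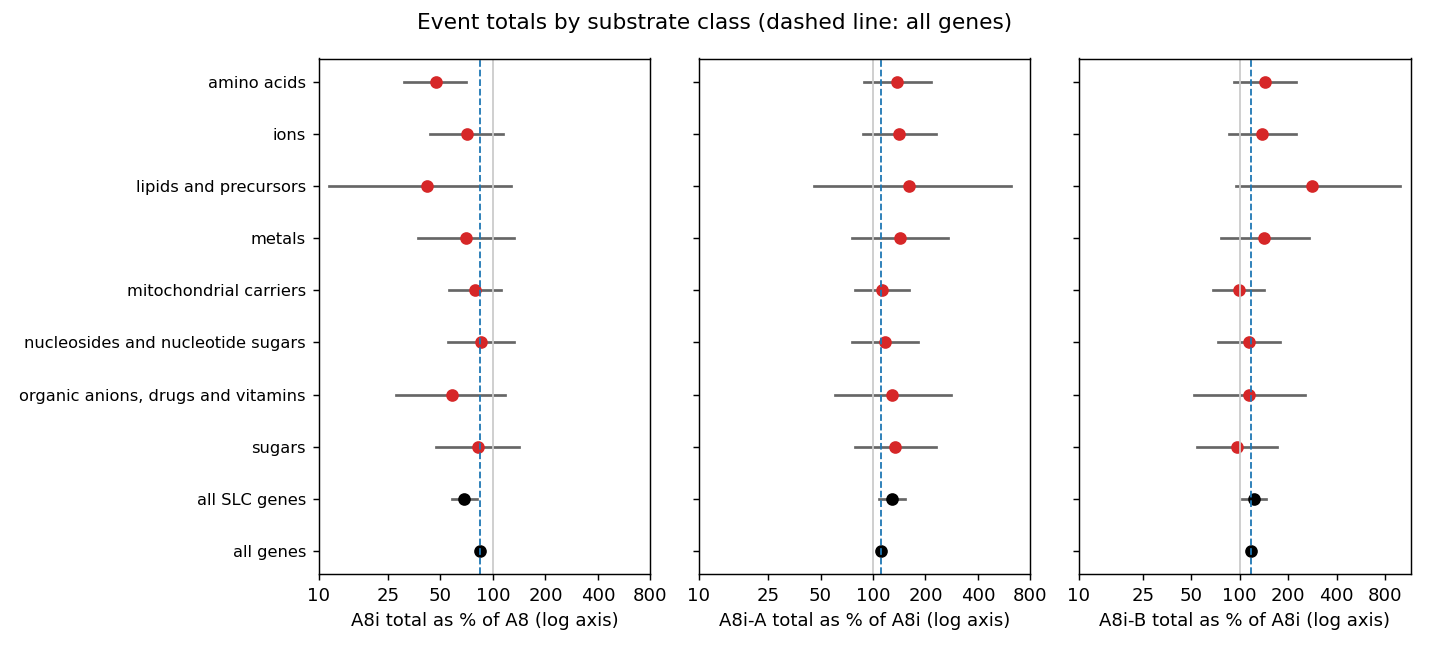
Event total of 1 library as a percentage of another (log axis) for each substrate class of solute carriers, for all of them and for all genes, with A8i over A8 on the left, A8i-A over A8i in the middle and A8i-B over A8i on the right. Lines are 95% exact Clopper-Pearson intervals, the dashed line marks all genes and the grey line 100%. On the left, the amino acid carriers at 46.8% are the class whose interval ends below the dashed line.

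Within the amino acid class, the SLC38 family held most of the difference between A8 and A8i. These proteins carry neutral amino acids such as glutamine together with sodium or protons, SLC38A1 and SLC38A2 at the cell surface and SLC38A7 and SLC38A9 at the lysosome. The family was singled out after its values were seen. Its 6 genes in the table summed to 33 events in A8 and 8 in A8i, and 21 in A8i-A and 23 in A8i-B. A8i was at 24.2% of A8 (interval 9.67 to 53.5%), and A8i-A and A8i-B were at 263% (interval 112 to 685%) and 288% (interval 124 to 743%) of A8i.

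SLC38A6 (chr14:61447832-61581034 of GRCh37, forward strand), an orphan member of the family, had 13 events in A8 but 4 in A8i and 5 in each isoform line. It was high in A8 alone. SLC38A10 (chr17:79218611-79269347, reverse strand) had 5 events in A8 against 0 in A8i, with 4 in A8i-A and 7 in A8i-B, so that A8i alone had none. SLC38A9 (chr5:54921673-55069022, reverse strand), the lysosomal arginine sensor upstream of mTORC1, had 6, 1, 3 and 6 events and was lowest in A8i.

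SLC38A1, a plasma membrane glutamine carrier, had 2 events in A8 and 3 in A8i-A but 0 in A8i and A8i-B. The remaining members fall outside the naming rule and were chosen after their values were seen. SLC38A7, which exports glutamine from lysosomes, had 5, 1, 4 and 3 events, again lowest in A8i. SLC38A2, the glutamine carrier that responds to amino acid shortage, had 2 events in every library. In numbers as listed, 5 of the 6 genes were lower in A8i than in A8, 1 was the same, and in A8i-A 5 of the 6 were higher than in A8i. In A8i-B, 4 of the 6 were higher than in A8i and 2 were the same.

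**Figure D4:**
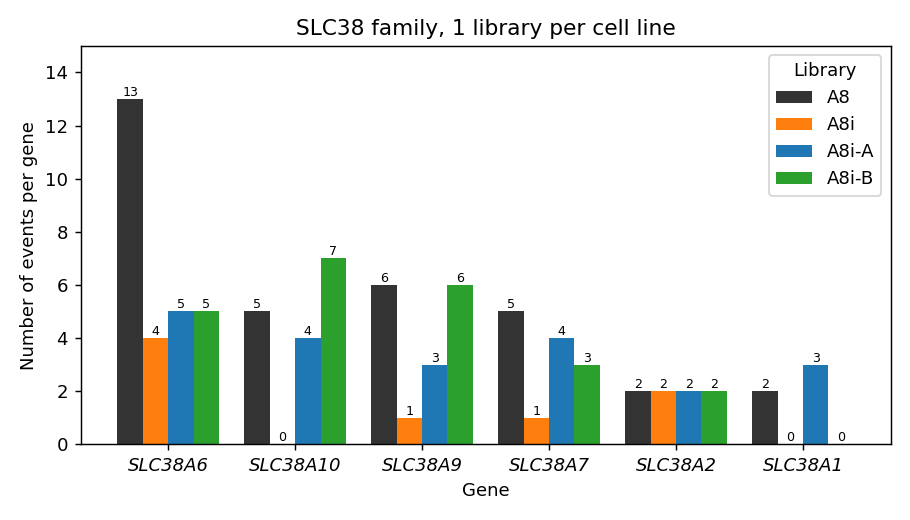
Number of events (vertical axis) of the 6 SLC38 genes in A8, A8i, A8i-A and A8i-B, as bars with the number on top and 1 library per line. The A8i bar is the lowest or level with the lowest in each gene, and SLC38A6 in A8 is the highest bar at 13.

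Totals were also taken without the family, a choice made after its values were seen. With SLC38A6 left out, the other 5 genes of the family had 20 events in A8 and 4 in A8i, a share of A8 whose interval ran from 4.97 to 59.7%. With the whole family left out, the remaining 15 amino acid genes had 46 events in A8, 29 in A8i and 30 in each isoform line. That is 63.0% of A8 in A8i (interval 38.2 to 103%), an interval that holds 100% and the value of all genes. Without the family, all other carriers had 73.2% of their A8 events in A8i (interval 61.6 to 86.9%), and without the amino acid class 74.9% (interval 62.2 to 90.1%), and both intervals then held the 83.8% of all genes.

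The heteromeric amino acid exchangers pair a light chain of the SLC7 family with the heavy chain SLC3A2. SLC3A2, also called CD98 heavy chain, had 7 events in A8 and A8i and 6 in both isoform lines, and so differed by at most 1. SLC7A6 (chr16:68298419-68335726, forward strand), the light chain y+LAT2, had 9, 3, 4 and 5 events and was high in A8 alone. SLC7A7, the light chain y+LAT1, went the other way, with 1, 3, 1 and 0 events. Of the 31-base windows of the longest annotated SLC7A6 transcript, 53.3% also occur in transcripts of its neighbour SLC7A6OS. How events were assigned between the 2 genes is not given in the sources used here.

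The neutral amino acid carrier SLC1A4, known as ASCT1, had 3 events in A8 and 0 in the other 3 libraries. SLC7A11, the cystine-glutamate exchanger that supplies cysteine for glutathione, had 2 events in A8 and 0 elsewhere, and was chosen after its values were seen. In all, 11 carriers (7.24%) had events in A8 only, against 4.3% of all genes. They also include the sodium-proton exchangers SLC9A5, with 3 events, and SLC9A3, with 1. The remaining 7 had 1 event each, and a gene at 0 in 3 libraries is not shown to be without its transcript there.

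SLC43A3 (chr11:57174427-57195053, reverse strand) had 11 events in A8 against 7 in A8i, with 9 in A8i-A and 7 in A8i-B. The SLC43 family is grouped with the amino acid carriers, although SLC43A3 itself is known as a purine nucleobase transporter. Its numbers in A8 and A8i-A were above those in A8i and A8i-B. Of the windows of its longest annotated transcript, 48.7% are shared with a gene model that overlaps it.

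Mitochondrial carriers, taken as the SLC25 transporter genes, were the largest class. Their A8i total lay closer to A8 than that of the amino acid carriers, though the intervals overlap. Their 33 genes had 80 events in A8 and 63 in A8i, and 71 in A8i-A and 62 in A8i-B. A8i was at 78.8% of A8 (interval 55.7 to 111%), with 15 genes lower, 7 higher and 11 the same. Of all 9885 genes, 3810 were lower, 1950 higher and 4125 the same. SLC25A39, needed for glutathione import into mitochondria, had 7 events in each library. Of the 33 genes, 4, SLC25A33 at 0 among them, did not differ between any of the libraries. Of all genes, 13.6% had the same number above 0 in each library, and 167 of the 9885 were at 0 throughout.

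Single mitochondrial carriers differed in opposite directions. SLC25A13, the aspartate-glutamate carrier citrin, had 2 events in A8 but 4 in A8i, and 0 and 1 in A8i-A and A8i-B. SLC25A22, a glutamate carrier, had 2, 4, 0 and 0 events. Both were highest in A8i and at 0 in A8i-A. By contrast, SLC25A23, which exchanges ATP-Mg for phosphate, had 4, 3, 9 and 5 events, the highest in A8i-A. The pyrimidine nucleotide carrier SLC25A36 was higher in A8 and A8i, at 6 and 7 events, than in A8i-A and A8i-B, at 3 and 4.

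Others of the class had few events. SLC25A16 had 4 in A8 against 2 in A8i, with 1 in A8i-A and 0 in A8i-B. SLC25A40, linked to mitochondrial glutathione like SLC25A39, had 3, 0, 0 and 2. The S-adenosylmethionine carrier SLC25A26 had 4, 3, 1 and 4. These were differences of up to 4 events. SLC25A4, an ADP-ATP exchanger of the inner membrane, had 1 event in A8 and 1 in A8i, and 3 in A8i-A and 0 in A8i-B.

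Among the ion carriers, 21 genes had 45 events in A8 but 32 in A8i, and 45 and 44 in A8i-A and A8i-B. A8i was at 71.1% of A8, with an interval of 43.7 to 114% that holds 100%. The bicarbonate carriers of the SLC4 family were the most uneven. SLC4A3 (chr2:220492116-220506702, forward strand), the anion exchanger AE3, had 2 events in A8 against 0 in A8i, with 6 in A8i-A and 10 in A8i-B. SLC4A7, a sodium-bicarbonate cotransporter that raises cell pH, had 3, 1, 2 and 5. Both were lowest in A8i and highest in A8i-B.

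The sodium-proton exchangers of the SLC9 family, which also set pH, were low throughout. SLC9A8, the exchanger of the Golgi, had 3 events in A8 and 0 in A8i, and 1 in A8i-A and 1 in A8i-B. In contrast, SLC26A6 (chr3:48663156-48672926, reverse strand), an exchanger of chloride, bicarbonate and oxalate, had 11, 12, 11 and 10 events and was the most event-rich carrier in A8i. The potassium-chloride cotransporter SLC12A4 had 4, 5, 7 and 3.

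Carriers of nucleosides and nucleotide sugars of A8i stayed closest to A8 among the classes with more than 8 genes. Their 20 genes had 48 events in A8 but 41 in A8i, and 48 and 47 in A8i-A and A8i-B, and A8i was at 85.4% of A8 (interval 54.9 to 132%), or at 102% once scaled to the library totals. Of the 18 SLC35 genes, which mostly bring nucleotide sugars into the Golgi and endoplasmic reticulum, 12 had the same number in A8 and A8i. Over all genes this share was 41.7%. The same number in each library was found for 6 of the 18, with SLC35B4 and SLC35D1 at 0 among them. Of all genes, 13.6% had the same number above 0 in each library, and 167 of the 9885 were at 0 throughout. SLC35B1, which brings ATP into the endoplasmic reticulum, had 7, 7, 6 and 7 events. SLC35C2, linked to Golgi fucosylation, had 9, 6, 6 and 8.

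The equilibrative nucleoside transporters differed from each other. SLC29A2, or ENT2 (chr11:66129992-66139685, reverse strand), had 7 events in A8 against 2 in A8i, with 8 in A8i-A and 3 in A8i-B. A8 and A8i-A were thus above the other libraries by at least 4 events. SLC29A1, or ENT1, had 4 events in every library and was chosen after its values were seen.

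The 12 sugar carriers, with which the vitamin carrier SLC5A6 is counted by family, had 33 events in A8 and 27 in A8i, and 36 in A8i-A and 26 in A8i-B. A8i was at 81.8% of A8 (interval 47.3 to 140%). SLC2A6 (chr9:136336216-136344249, reverse strand), the glucose transporter GLUT6 of internal membranes, had 7, 4, 9 and 1 events, with a gap of 8 between the isoform lines. SLC2A1, the main glucose transporter of growing cells, had 2 events in A8, 0 in A8i and 2 in each isoform line, and was chosen after its values were seen. SLC50A1, a sugar efflux carrier, had 6 events in each library, and SLC5A6, which takes up biotin and pantothenate, had 1, 3, 2 and 1.

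The carriers of metals and heme numbered 16 and had 27 events in A8 but 19 in A8i, and again 27 in each isoform line. A8i was at 70.4% of A8 (interval 37 to 131%). The zinc carrier SLC39A9 had 6, 3, 8 and 6 events and was lowest in A8i. SLC11A2, the iron carrier DMT1, had 3 events in A8i-A and 0 in the other libraries.

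The 14 carriers of organic anions, drugs and vitamins had 24, 14, 18 and 16 events, with A8i at 58.3% of A8 (interval 27.9 to 117%). SLC22A15, an organic cation and zwitterion carrier, had 5 events in A8 and A8i-A and 3 in A8i and A8i-B. The bile acid family member SLC10A7 had 2, 3, 1 and 2. Of the monocarboxylate family, SLC16A3, the lactate exporter MCT4, had 2, 1, 2 and 1 events and SLC16A6 had 5, 1, 3 and 2, both chosen after their values were seen.

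The 8 carriers of lipids and their precursors had 12, 5, 8 and 14 events. A8i was at 41.7% of A8, with a wide interval of 11.5 to 127%. The fatty acid transporter SLC27A1 had 2, 1, 4 and 2 events and the choline transporter-like SLC44A2 had 1, 2, 1 and 4. The urea transporter SLC14A1, alone in its class, had 1, 0, 1 and 2. The 6 symbols that are no transporters summed to 5, 5, 8 and 7, of which SLC2A4RG, a zinc finger protein named for the SLC2A4 gene, had 3, 3, 4 and 3.

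Because A8i-A was given back ECM1a, the carriers were also sorted by whether A8 and A8i-A both lay above A8i and A8i-B. This held for 15 carriers (9.87%), against 7.45% of all genes. The largest gaps were those of SLC29A2 and SLC2A6, and the pattern also held for SLC43A3, SLC22A15 and SLC38A1. The reverse, with both below, held for 2 carriers (1.32%), SLC2A8 and SLC44A2, against 4.79% of all genes. SLC2A8, a glucose transporter of internal membranes, had 2, 4, 2 and 4 events and was chosen after its values were seen.

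By library, A8 alone was highest in 32 carriers (21.1%), against 16.6% of all genes. A8i alone was highest in 13 (8.55%), against 8.87%, A8i-A alone in 26 (17.1%), against 12.6%, and A8i-B alone in 20 (13.2%), against 16.2%. A8i alone was lowest in 24 carriers (15.8%), against 14.6%. The same number above 0 in each library was found for 18 carriers (11.8%), against 13.6% of all genes. Most of these shares lay near the background of the whole table.

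The transporters whose families carry symbols of another kind, such as the SLCO, sideroflexin and NIPA genes, were looked up beside the members. Of 60 such symbols, among them older and newer names of the same gene, 30 were in the table. They summed to 66 events in A8 against 52 in A8i, with 60 in A8i-A and 54 in A8i-B. A8i was at 78.8% of A8 (interval 53.7 to 115%), with 10 of the 30 genes called lower and 3 higher, where 20.2 and 8.62% of all genes were. LETMD1, a mitochondrial membrane protein, had 12, 11, 14 and 11 events, the magnesium carrier NIPA2 had 5, 5, 7 and 6, and PQLC1 had 10, 4, 3 and 3. Of 12 known partners of solute carriers, such as the monocarboxylate carrier chaperone BSG, 5 were in the table, with 6, 4, 3 and 6 events.

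The members did not represent the families evenly. Counted by current symbols, which add PQLC1, PQLC2 and PQLC3, the table lists 149 of the 369 protein-coding SLC genes of GENCODE (40.4%), against 9050 of 20175 of all protein-coding genes (44.9%). Mitochondrial carriers were represented by 33 of 49 genes (67.3%), amino acid carriers by 21 of 65 (32.3%) and the organic anion, drug and vitamin carriers by 14 of 75 (18.7%).

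The numbers followed gene structure in part. Over the 152 members, the Spearman correlation of the mean number of events with the number of annotated transcripts was 0.36, with the number of exons of the longest transcript 0.09 and with its length -0.23. Over the 9818 matched genes of the table these were 0.47, 0.15 and 0.02. All points come from the same 4 libraries. The members at or below their median length of 4084 nt had 73.7% of the A8 events in A8i (interval 59.1 to 91.8%), and the longer ones 62.2% (interval 47.8 to 80.6%). Over all genes these were 86.6 and 80.9%, so that the carriers were lower in both length groups. The interval of the shorter carriers held the 86.6% of all genes, and that of the longer ones ended just below the 80.9%.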

How the data were processed

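The authors isolated RNA with TRIzol, trimmed paired reads with Trim Galore, checked them with FastQC, mapped them to hg19 with TopHat and estimated FPKM with Cufflinks 2.2.1. The submitters' processing notes name the mouse build GRCm38 instead, but 99.32% of the deposited gene identifiers matched human GENCODE v44 on GRCh37, whose coordinates are given. The deposited table holds numbers of events per gene, other than read counts or FPKM, with totals that differ between libraries. How it was made and the read depth behind it are not given in the sources used here. Its 4 columns were matched to the labels by name, and 0 were left unused.

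Members, lists and substrate classes were chosen with earlier results of these data known. Each line was 1 library, so no test was made. Ratios of totals carry 95% Clopper-Pearson intervals, computed exactly from the binomial share of the first total in both. Log2 ratios used a pseudocount of 1. The named genes were the 10 with the highest means, the 4 largest differences in each direction for 4 pairs of libraries, those with at least 3 events in 1 library and 0 in another, the highest of each class, and the 3 highest of the list with other symbols. Of the genes this rule names, 1 is not reported here. Of the members, 14 shared 25% or more of the 31-base windows of their longest annotated transcript with 1 other gene. Python 3.11.15, numpy 2.4.6, pandas 2.3.3, scipy 1.17.1 and matplotlib 3.10.9 were used.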

Additional observations from a re-analysis of the deposited data

How the results depend on the processing

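No paired analysis was possible because each line has 1 library. Scaling to the library totals shifted the median log2 ratio of all genes by 0.13 for A8i over A8 and by -0.12 for A8i-B over A8i. It made the totals of all genes equal by construction and brought the carrier total of A8i to 81.9% of A8. The carriers called lower in A8i than in A8 came to 24 (15.8%, against 7.17% of all genes). Those called higher in A8i-B than in A8i came to 15 (9.87%, against 7.32%), and those called lower in A8i-A than in A8i-B to 7 (4.61%, against 5.56%). The call rule puts 1 event against 0 exactly at its limit, so that scaling alone moves such genes across it. They drop below it where the event is in A8 or A8i-B, the larger libraries, and stay called where it is in A8i or A8i-A. At least 2 events were listed for 78, 56, 71 and 69 carriers in A8, A8i, A8i-A and A8i-B. Over all 9885 genes, these numbers were 5194, 4478, 4829 and 5149. A difference of at least 2 events left 5 carriers higher in A8i than in A8 (3.29%, against 6.89% of all genes). It left 9 lower in A8i-A than in A8i (5.92%, against 8.21%). In another setting, only the 83 carriers with events in each library were kept, which are fewer genes by construction. Of these, 1 was called higher and 12 lower in A8i than in A8. In A8i-A, 13 were called higher and 4 lower than in A8i. In A8i-B, 7 were called higher and 2 lower than in A8i. Between the isoform lines, 6 were called higher and 6 lower in A8i-A than in A8i-B. Such calls were not counted over the 5986 genes of the table with events in each library. The counts of the 83 carriers therefore have no background and are not read as a difference from all genes. A pseudocount of 0.5, transporter genes only and leaving out the 10 highest means moved no total beyond its interval and no count by more than 1.5-fold, nor did leaving out SLC38A6 or the SLC38 family, both chosen after seeing the data. No total over all carriers crossed 100% and no ratio of a named gene called in the report changed sign under these settings. Events of 1 gene may not be independent, and intervals that take them so may be too narrow.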
